A study of Sus scrofa with 9 samples.

Results

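Among the small RNAs listed for porcine granulosa cells (PGCs), a group of entries carries miRBase numbers whose hairpins are known in humans or mice to overlap, or to look like, pieces of rRNA, tRNA, snRNA or snoRNA genes, together with GC-rich numbers grouped with them. Members were taken by the number in the entry name, from a list of 15 numbers: miR-1246, miR-1248, miR-1260, miR-1275, miR-1291, miR-1973, miR-1983, miR-2137, miR-2904, miR-4332, miR-4508, miR-4787, miR-4792, miR-6240 and miR-8903. They made up 134 of the 1345 rows of the table, with 125 different sequences of 1283, and 14 of the 15 numbers were found, since miR-1275 matched no row. Many rows carried the same 9 values, so rows of a number that shared all 9 were counted once, as a profile, which left 75 profiles. The numbers had been picked with the differences between groups already known, and the values below are therefore a description with no test of the members as a group. Whether a listed sequence lies in an rRNA, tRNA or snoRNA gene of the pig was not tested, and the resemblance is background from other species, given below for those numbers where it is known.

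The PGCs were primary cells from ovaries of crossbred sows, cultured in serum-containing medium and exposed for 12 h to 0 μM (CON), 100 μM (LOS) or 300 μM (MOS) H2O2, an oxidant used to produce oxidative stress. All groups shared the serum and differed in the labels only by the dose, and there were 3 libraries in each. The sources used here did not say whether the 3 libraries of a group came from separate animals or cultures, so the spread between them may be partly technical. The design asks how small RNAs differ between the doses.

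Ribosomal, transfer and small nucleolar RNAs make up most of the RNA of a cell, and cells cut or degrade them into fragments in the size range of miRNAs. Some of these fragments were first deposited as miRNAs. tRNAs end in CCA, a triplet added after transcription, and stress is known to raise tRNA cleavage in many cell types. The authors removed sequences of the common RNA families before miRNAs were named, so the entries described here are those that passed that step.

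In entry names, an L stands for a change of length at the 5′ end and an R for one at the 3′ end, ss is followed by a substituted base, p5 and p3 denote hairpin arms that were predicted, and the prefix is the species whose miRBase entry was matched (ssc pig, hsa human, mmu mouse, bta cattle, cgr Chinese hamster, ggo gorilla, cfa dog). All sequences are the ones deposited for the pig libraries, 5′ to 3′, written with T, with the seed (bases 2 to 8, the part of a miRNA that pairs with targets) in capitals. The first set holds leading entries of miR-6240, miR-4332, miR-1973, miR-4792 and miR-4787, which had the highest MOS sums among the numbers whose MOS libraries all lay above CON.
mmu-miR-6240_R-6_1ss1CA: aCAAAGCAtcgcgaaggccc
mmu-mir-6240-p3_1ss16GT: gCCCAGTGctctgaatgtc
mmu-mir-6240-p5_1ss1TG: gCGATGTGatttctgcccagt
ssc-miR-4332_L-1_1ss20CA: aCGGCCGCcgccgggcgca
ssc-mir-4332-p5_1ss18CA: cGGCCGCCgccgggcgcatt
hsa-mir-1973-p5_1ss5CT: gTATTCTGaccgtgcaaaggtagca
hsa-miR-4792_1ss9GT: cGGTGAGCtctcgctggc
hsa-mir-4787-p3_1ss4GC: cGTCGCGGgggtggcggcg

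The second set holds the abundant tRNA-like entries, 4 of which differ in single bases or in their last bases, and the entries with U2- or snoRNA-like letters.
mmu-miR-1983: cTCACCTGgagcatgttttct
hsa-miR-1260a_1ss9TG: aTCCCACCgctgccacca
hsa-miR-1260b_R-1: aTCCCACCactgccacca
hsa-miR-1260b_1ss9AG: aTCCCACCgctgccaccat
ggo-miR-1260b_R+2_1ss9AG: aTCCCACCgctgccaccatt
bta-miR-1246_L-1_1ss17AT: aTGGATTTttggagctgg
hsa-miR-1246_L+1R+2: aAATGGATttttggagcaggga
hsa-miR-1248_R-6: aCCTTCTTgtataagcactgt
bta-miR-1291_R+1: tGGCCCTGactgaagacctgcagtt

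No seed was shared between numbers, while several were shared within a number. The seed TCCCACC was held by 14 sequences in 10 profiles, all of them miR-1260, and CCCACCG by 8 sequences in 3 profiles, which are miR-1260 forms that begin 1 base later. No other seed was held by more than 3 sequences. The members were short: 106 of the 125 sequences (84.8%) had 18 to 20 nt, against 32.9% of all 1283 sequences. A GC content of at least 70% was found in 42 of the 125 (33.6%), against 11.5% of all sequences.

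By number, the GC content fell into a high and a lower set. It was 84.2 to 95.2% for miR-4332, 78.9 to 95.2% for miR-2904, 83.3 to 94.4% for miR-4508, 88.9 to 90% for miR-2137, 89.5% for miR-4787 and 72.2 to 75% for miR-4792. miR-6240 was spread from 47.4 to 84.2%. The tRNA-like numbers lay at 57.1 to 68.4% (miR-1260) and 40 to 68.4% (miR-1983), and miR-8903 at 68.2%. miR-1291 had 48 to 56%, miR-1248 38.1%, miR-1973 31.6 to 50% and miR-1246, the poorest in GC, 10 to 44.4%. Median lengths were 18 to 20.5 nt for 11 of the 14 numbers, and miR-1248 (21 nt), miR-8903 (22 nt) and miR-1291 (25 nt) were longer. Letters were seldom shared between numbers, with a longest common run of 13 bases on the listed strand, between miR-4332 and miR-4787, and of 14 bases on opposite strands, between miR-4332 and miR-8903. Outside the members, 9 entries shared at least 14 bases in a row with one of them, 7 of which are named miR-5126. All 9 were listed at 0 in CON and stayed at or under 16.3 in MOS.

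Values are the authors' normalized counts. CON libraries had totals of 5578704 to 6084944, LOS libraries 5701572 to 6098582 and MOS libraries 4967112 to 5117859. Values under 400 were, for at least 98.3% of them, within 0.05 of a whole multiple of a step that was constant within a library. Dividing total by step gave depths of 8827764 to 13486271 for CON libraries, 12853437 to 16764959 for LOS libraries and 7793727 to 9321692 for MOS libraries. MOS libraries and CON library 1 were thus the shallowest, and 1 step was worth 0.542 to 0.637 normalized counts in MOS. The smallest value above 0 was 1.6 to 4 steps in each library, so a 0 in the table need not mean 0 reads. miR-21 and miR-202, which granulosa cells express, were present in every library (miR-202 summed to 2984 to 3652 in CON libraries, 3688 to 3992 in LOS libraries and 1203 to 1791 in MOS libraries). miR-21 summed to 2267713 to 2834221 in CON libraries, 2559108 to 2833070 in LOS libraries and 1754451 to 1957424.5 in MOS libraries. It was thus also lower in MOS, and its part in the library totals and in the members' shares was not tested. The other granulosa markers looked at overlapped between MOS and CON. miR-503 was at 228 to 321 in MOS and 266 to 319 in CON, and miR-424 at 2837 to 5455 in MOS and 3910 to 3950 in CON. Of markers of other cells, miR-451 (red blood cells) was at 81.3 to 543 over the 9 libraries and the muscle miRNAs miR-1 and miR-133 at 597 to 1608 and 379.6 to 536, while miR-206, of muscle too, had no row. miR-142 (leukocytes) summed to 882 to 1935 in MOS, against 2149 to 2255 in CON, and miR-145 (stroma) to 11604 to 20275 in MOS, against 23726 to 28924 in CON. The other stroma markers, miR-143, miR-199a and miR-214, overlapped between MOS and CON, as did miR-126 (endothelial cells). miR-199a was at 236 to 492 in MOS and 217 to 290 in CON. miR-486 (red blood cells) was higher in MOS, at 105 to 128 against 57.8 to 85.9 in CON. miR-223 (leukocytes) was lower, at 96.0 to 278 in MOS against 292 to 399 in CON. The part of other cells in the members' values was not tested.

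Members took a small share of each library, and a larger one in MOS. With each profile counted once, they held 0.117 to 0.126% of the normalized counts in CON libraries, 0.122 to 0.137% in LOS libraries and 0.314 to 0.361% in MOS libraries. Group means were 0.122 ± 0.00456% for CON, 0.129 ± 0.00732% for LOS and 0.341 ± 0.0245% for MOS (SD, n = 3 each). MOS libraries lay above all other libraries, and LOS and CON overlapped. In summed normalized counts, the members reached 17189 ± 1001 in MOS, against 7108 ± 499 in CON (SD, n = 3 each). The numbers were not alike in this. miR-1983, miR-1260, miR-1246 and miR-8903 left out, the other 10 numbers with rows summed to 324 to 360.1 in CON libraries, 517 to 679 in LOS libraries and 9296 to 11375 in MOS libraries. The numbers left out are those whose MOS libraries did not all lie above CON. The gap between MOS and CON in the rest thus follows in part from that choice. miR-1983 alone made up, on average, 66.7% of the members' sum in CON, 70.1% in LOS and 26.1% in MOS. miR-6240 made up 2.94, 4.38 and 27.7% of it at the 3 doses, and miR-4332 0.563, 1.26 and 24.9%.

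**Figure D1:**
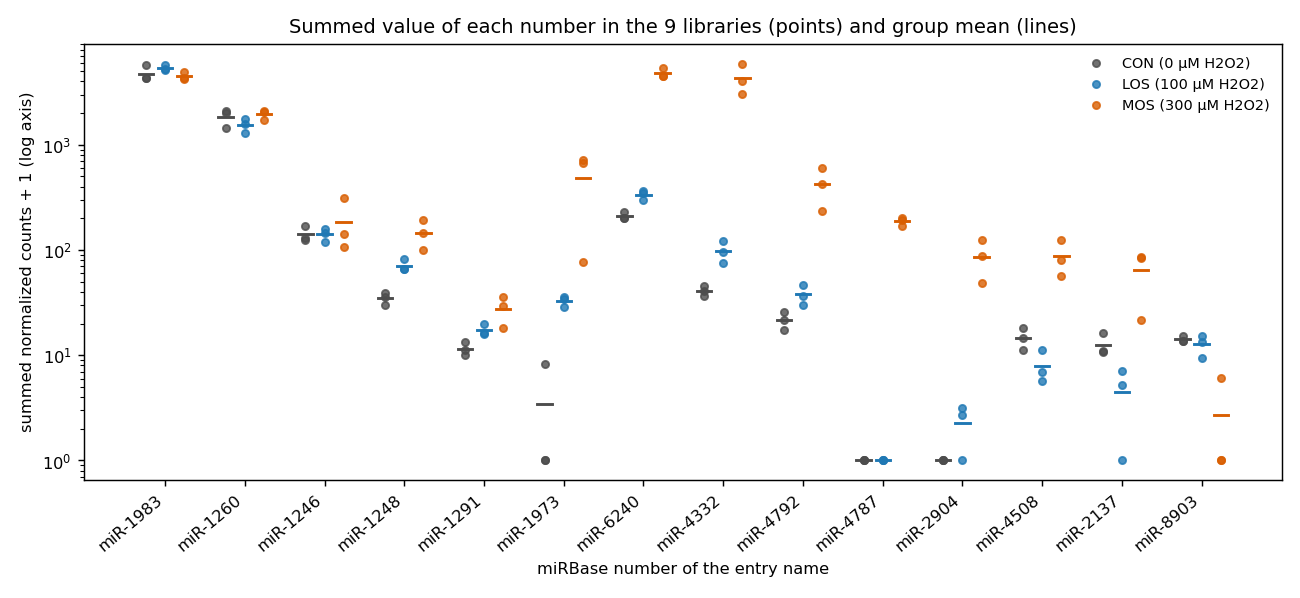
Summed normalized count plus 1 (log axis) of each of the 14 numbers, with each profile counted once, in the 9 libraries (points) and as group means (lines). The MOS points of miR-4332 (3055, 4002 and 5887) and miR-6240 (4472, 5353 and 4479) lie far above the LOS and CON points, whereas those of miR-1260 overlap both groups and those of miR-1983 overlap the CON points and lie below the LOS points.

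Of the 75 profiles, 40 reached a normalized count of 10 in at least 3 libraries and were tested in 1 fit with all entries of the table. The other 35 did not, and 26 of them stayed under 10 in every library. Of the 40, 11 were at 10 or more in MOS libraries only, and had to differ to be tested. In MOS against CON, 26 profiles were called higher and 1 lower at an adjusted p under 0.05 (limma, Benjamini-Hochberg over all entries). Over the whole table, 17% of the 670 sets of 9 values tested were called higher and 10.1% lower. Since the numbers were picked on this contrast, the count is given beside that background and nothing is read from it. In 27 profiles every MOS library lay above every CON library (23.1% of all sets), and in 1 every MOS library lay below (16.4%). The median log2 difference was 1.97 for the members and 0.05 for all sets. For 7 of the 40 profiles all CON libraries were listed at 0, so their fitted differences depend on the pseudocount, and all 7 lie above that median. By number, those called higher were all 9 tested profiles of miR-6240, all 3 of miR-4332, both tested profiles each of miR-1973, miR-2904, miR-4508 and miR-4792, and the single tested profiles of miR-1248, miR-1291 and miR-4787. The others were 2 of 9 tested profiles of miR-1260 and 1 of 4 of miR-1246, with none for miR-1983 and miR-2137, where limma at an unadjusted p under 0.05 gave 0 of 2 and 1 of 1 profiles. All 11 profiles at 10 or more in MOS libraries only are among those called higher. They are both tested profiles of miR-2904, the single one of miR-4787 and forms of miR-6240, miR-4332, miR-1973, miR-4508 and miR-1246. The tallies by number thus follow in part from the filter. Leaving out a MOS library lowered the number tested as well as the calls: without MOS library 1, 15 of 28 were called, and without MOS library 2, 13 of 29. The share of all sets called in these fits is not given, so the counts show only how the calls depend on the libraries.

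In MOS against LOS, 26 profiles were called higher and 1 lower, beside 15.8% and 11.8% of all sets. Every MOS library lay above every LOS library in 28 profiles and below in 2 (21.8% and 17.6% of all sets). The count was 16 without MOS library 1 and 16 without MOS library 2. In LOS against CON, 5 profiles were called higher and 0 lower by limma, beside 2.84% and 0.448% of all sets. At an unadjusted p under 0.05, limma gave 8 higher and 2 lower. No share of all sets is given at that threshold, so nothing is read from this count. Groups did not overlap in 13 profiles, with LOS above CON in 11 and below in 2 (13% and 8.06% of all sets), and the median log2 difference was 0.10. The 5 profiles were ssc-miR-4332_L-1_1ss20CA, ssc-mir-4332-p5_1ss18CA, mmu-miR-6240_R-6_1ss1CA, mmu-mir-6240-p5_1ss1TG and mmu-mir-6240-p5_1ss15GT. The count fell to 2 without LOS library 1, and to 3 without CON library 1, CON library 2 or LOS library 2.

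miR-6240 is a mouse entry whose letters resemble 28S rRNA, the RNA of the large ribosomal subunit. Its leading profile, mmu-miR-6240_R-6_1ss1CA, had 119, 94.6 and 96.6 normalized counts in CON, 197, 181 and 182 in LOS and 3201, 3788 and 3189 in MOS. The 3 groups did not overlap, and MOS values were close to each other. The mean was 32.8-fold higher in MOS than in CON (log2 difference 5.03, SE 0.14) and 1.81-fold higher in LOS than in CON (0.85, SE 0.14). mmu-mir-6240-p3_1ss16GT had 11.4, 31.3 and 24.4 in CON, 37.7, 39.8 and 29.4 in LOS and 409.6, 632 and 827 in MOS. LOS and CON overlapped for it, while MOS stood 27.9-fold above CON (log2 difference 4.79, SE 0.37).

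Other miR-6240 profiles were listed at 0 in CON. mmu-mir-6240-p5_1ss1TG was listed at 0 in all CON libraries, at 15, 14.4 and 4.74 in LOS and at 355, 373 and 93.2 in MOS. mmu-mir-6240-p5_1ss15GT was likewise at 0 in CON, at 11.9, 5.93 and 4.74 in LOS and at 56.7, 119 and 75.3 in MOS. For both, groups were ordered by dose with no overlap. mmu-mir-6240-p5_1ss19GT was the least apart of the larger ones, with 63.2, 67.0 and 93.8 in CON, 90.5, 85.6 and 65.5 in LOS and 294, 246 and 144 in MOS (log2 difference MOS against CON 1.56, SE 0.28). Summed over its 11 profiles, miR-6240 was 22.8-fold higher in MOS than in CON and 1.6-fold higher in LOS than in CON.

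The miR-6240 sequences tile 2 stretches. Joined where they overlapped by at least 12 identical bases, 17 sequences merged into 33 bases with a GC content of 51.5%, and 3 sequences into 27 bases with 70.4%. mmu-miR-6240_R-6_1ss1CA covers bases 1 to 20 of the 27, and mmu-mir-6240-p5_1ss13AG, at 74.8, 80.3 and 73.7 in MOS and at most 3.61 elsewhere, bases 9 to 27. On the 33 bases, the forms did not run alike among the MOS libraries. mmu-mir-6240-p5_1ss1TG (bases 1 to 21) had a MOS library 3 value of 0.256 times the mean of the other 2 MOS libraries, and mmu-mir-6240-p3_1ss1TG (bases 1 to 19) of 0.363 times. The same ratio was 0.533 for mmu-mir-6240-p5_1ss19GT (bases 12 to 30) and 1.59 for mmu-mir-6240-p3_1ss16GT (bases 15 to 33). It was 0.977 for mmu-mir-6240-p5_1ss17GT (bases 14 to 32), a low profile, and 0.856 for mmu-mir-6240-p5_1ss15GT (bases 16 to 33), so forms with the same 3′ end also differed.

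**Figure D2:**
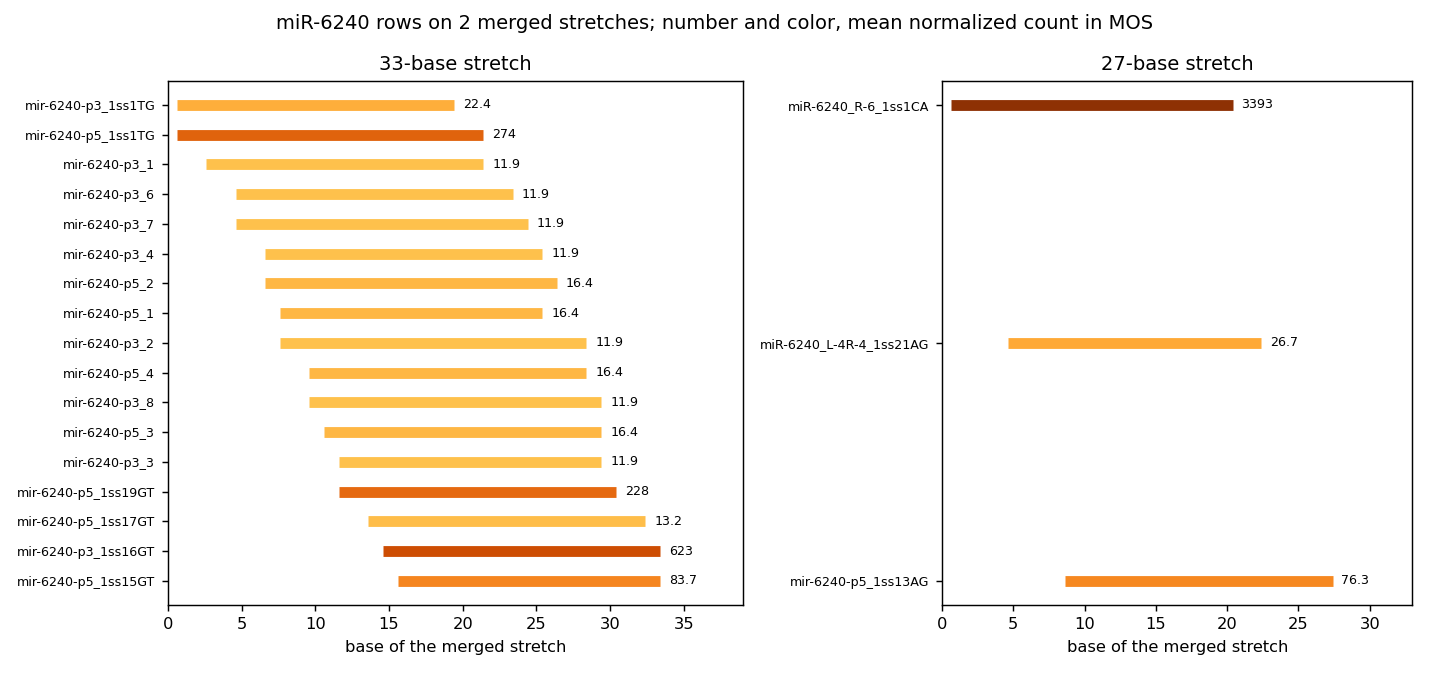
Bases of the 33-base and 27-base merged stretches covered by each miR-6240 sequence (bars), with the mean normalized count over the 3 MOS libraries as color and number. Rows that share 1 profile carry the same number (11.9 or 16.4), and the largest values sit at mmu-miR-6240_R-6_1ss1CA (3393) and mmu-mir-6240-p3_1ss16GT (623).

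miR-1973 is a human entry whose letters resemble mitochondrial 16S rRNA, the large ribosomal RNA of the mitochondrion. hsa-mir-1973-p5_1ss5CT had 0, 0 and 5.41 in CON, 32.0, 28.0 and 23.7 in LOS and 594, 528 and 58.5 in MOS. The groups were ordered by dose with no overlap, but MOS library 3 lay at 0.104 times the mean of the other 2, the lowest such ratio among the 26 tested member profiles with a MOS mean of at least 50. The log2 difference was 7.16 (SE 0.94) for MOS against CON and 3.95 (SE 0.94) for LOS against CON, and LOS against CON was not called. cgr-miR-1973_R+3 showed the same order, at 0, 0 and 1.80 in CON, 2.72, 5.51 and 1.90 in LOS and 111, 115 and 16.8 in MOS. The 5 miR-1973 sequences lie in a single stretch of 35 bases with a GC content of 42.9%, so a high GC content was not shared by every number that stood high in MOS.

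miR-4332 is a pig entry, and nearly all of its value came from 2 sequences that overlap in 18 bases, at bases 7 to 25 and 8 to 27 of a stretch of 27. ssc-miR-4332_L-1_1ss20CA had 22.8, 32.1 and 34.3 in CON, 95.2, 78 and 54.1 in LOS and 2107, 2590.1 and 3955 in MOS. ssc-mir-4332-p5_1ss18CA had 7.58, 8.93 and 5.41 in CON, 19.7, 17.0 and 19.9 in LOS and 914, 1373 and 1904 in MOS. In both profiles the 3 groups stood apart in the order of the dose, and MOS library 3 was the highest. The means were 97.0-fold and 191-fold higher in MOS than in CON (log2 differences 6.52 and 7.35, SE 0.29 each) and 2.55-fold and 2.58-fold higher in LOS than in CON (1.30 and 1.28, SE 0.29 each). The other miR-4332 rows were low: ssc-mir-4332-p3_5, a profile of 9 rows and 7 sequences, had 5.06, 3.57 and 0 in CON, 6.12, 0 and 0 in LOS and 24.9, 30.6 and 17.3 in MOS. Some of these 7 sequences share no run of more than 3 bases, so that profile's value cannot be tied to 1 sequence.

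The remaining GC-rich numbers were low or listed at 0 outside MOS. hsa-mir-4787-p3_1ss4GC was listed at 0 in all CON and all LOS libraries and had 196, 186 and 163 in MOS. bta-mir-2904-1-p5_1ss19TC was also at 0 in all 6, with 63.0, 67.6 and 22.2 in MOS. hsa-miR-4508_L-1R+2 was at 0 in CON, at 2.72, 0 and 0 in LOS and at 51.1, 70.1 and 28.2 in MOS. These entries were seen almost wholly in MOS. The MOS libraries and CON library 1 were the shallowest, and the part of depth in these values was not tested. No fold is given, because a 0 in the table need not mean 0 reads.

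hsa-miR-4792_1ss9GT had 5.06, 14.3 and 14 in CON, 32.0, 19.9 and 27 in LOS and 265, 389 and 190.2 in MOS, with no overlap between the doses (log2 difference 4.6, SE 0.41, for MOS against CON, and 1.27, SE 0.41, for LOS against CON). Its longer form hsa-miR-4792_L+1R+1_1ss10GT had 11.4, 6.25 and 10.8 in CON, 13.6, 9.33 and 8.54 in LOS and 161, 213 and 44.4 in MOS. The shorter form was apart at both doses and the longer one in MOS alone, but LOS against CON was not called for either form. The difference between the forms was not tested.

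mmu-miR-2137_L-2R-1_1ss16AG and hsa-miR-4508_L+2R-1 did not follow the order of the dose. The first had 15.2, 9.82 and 9.93 in CON, 6.12, 4.24 and 0 in LOS and 64.8, 72.7 and 20.6 in MOS. The second had 10.1, 17.0 and 13.5 in CON, 7.48, 5.93 and 4.74 in LOS and 28.7, 52.3 and 27.1 in MOS. In both, every LOS library lay below and every MOS library above the CON libraries. At these low values, neither LOS difference was called.

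Across the 40 tested profiles, all 13 with a GC content of at least 70% had every MOS library above every CON library, with log2 differences of 1.31 to 7.51 and a median of 4.6, and 7 of these 13 were tested through MOS alone. They belong to miR-2137, miR-2904, miR-4332, miR-4508, miR-4787, miR-4792 and miR-6240. Of the 27 with a lower GC content, 14 had every MOS library above every CON library, and their log2 differences ran from -2.95 to 7.86 with a median of 0.85. Over all 670 tested sets, 23.1% had every MOS library above every CON library, a share that was not split by GC content. Outside the members, 27 tested sets of values with at least 70% GC had a median of 0.37 and 603 with less had a median of 0.01. The GC-rich entries outside the members thus lay nearer to 0 in the middle of their range, but they also differed in length. Of the GC-rich profiles, 12 of 13 members had 18 to 20 nt, against 10 of 27 sets outside. Those 10 ran from -1.19 to 6.84, so high differences at this length and GC content were not particular to the members. The member values describe entries that were partly chosen for them, and the parts of GC content and length in the difference were not tested.

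**Figure D3:**
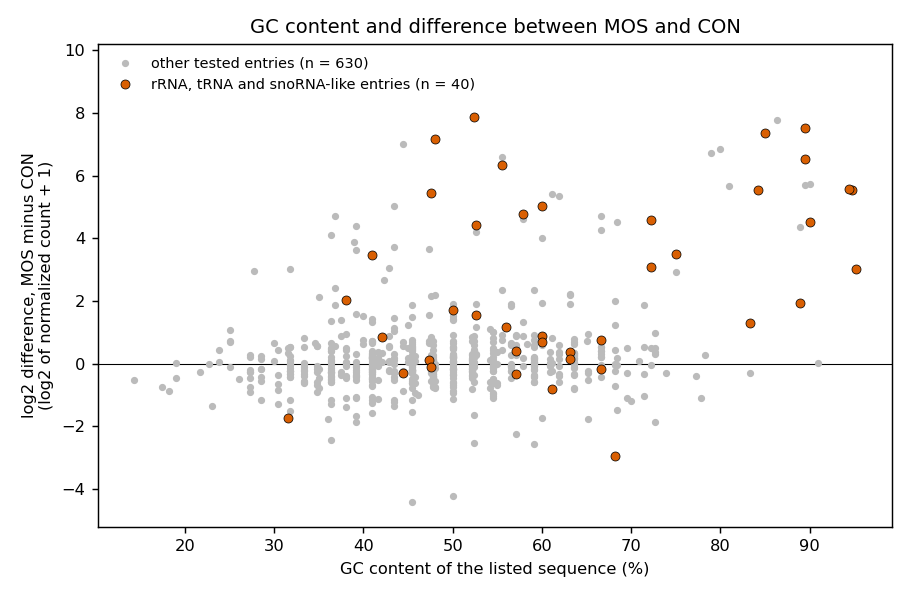
GC content of the listed sequence (x axis, %) against the log2 difference of MOS minus CON (y axis) for the 40 tested member profiles (orange) and the 630 other tested sets of 9 values (gray). All 13 orange points at 70% GC or more lie above 0, between 1.31 and 7.51, and orange points of lower GC content run from -2.95 to 7.86.

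The tRNA-like numbers were abundant at each dose, and their sums overlapped between MOS and CON. mmu-miR-1983, a mouse entry whose letters resemble a tRNA for isoleucine, was the most abundant member, with 4261, 4229 and 5669.7 in CON, 5164, 5074 and 5751 in LOS and 4858, 4167 and 4201 in MOS. MOS and LOS both overlapped CON, while every MOS library lay below every LOS library. The log2 difference was -0.28 (SE 0.13) for MOS against LOS and 0.19 (SE 0.13) for LOS against CON. For MOS against CON it was -0.09 (SE 0.13), and 0.12 with equal library totals. None of these was called. Its form shorter by 1 base at each end, mmu-miR-1983_L-1R-1, was far lower, at 20.2, 25.9 and 38.8 in CON, 23.1, 39.0 and 32.3 in LOS and 15, 33.1 and 50.9 in MOS. Among entries outside the members, those with the pattern most like mmu-miR-1983 over the 9 libraries were oan-miR-103-3p_R+2 (Pearson r = 0.96), hsa-miR-26a-5p_1ss10TC (0.81) and ssc-miR-365-3p (0.79), all measured in the same libraries.

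miR-1260 resembles the 3′ end of a tRNA for leucine, with its CCA. The 8 letters TGCCACCA stood in 23 of the 125 member sequences and in the same number of the 1283 sequences of the table, so outside the members no sequence held them, searched on the listed strand. hsa-miR-1260a_1ss9TG, which ends in CCA, had 1177, 1194 and 804 in CON, 998, 891 and 696 in LOS and 769, 976 and 1074 in MOS. hsa-miR-1260b_R-1, which differs from it by 1 base and also ends in CCA, had 168, 178 and 106 in CON, 114, 83.9 and 90.1 in LOS and 48.6, 106 and 114 in MOS. In both profiles MOS and CON overlapped, with log2 differences of -0.16 (SE 0.20), which is 0.05 with equal library totals, and -0.80 (SE 0.34).

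Forms that go on past the CCA were placed otherwise. ggo-miR-1260b_R+2_1ss9AG had 263, 288 and 210.3 in CON, 262, 233 and 211 in LOS and 418, 482 and 338 in MOS, so that every MOS library lay above every CON and LOS library (log2 difference MOS against CON 0.70, SE 0.18). cgr-miR-1260_R+2_3 had 72.0, 89.3 and 78.5 in CON, 85.7, 78.8 and 82.6 in LOS and 145, 141 and 157 in MOS (0.88, SE 0.16). For hsa-miR-1260b_1ss9AG, with 1 base after the CCA, MOS and CON overlapped, at 147, 178 and 184 in MOS and 148, 138 and 104 in CON. Not every such form was higher: hsa-miR-1260a_R+3_1ss9TG had 41.1, 48.4 and 69.3 in MOS and 68.3, 67.0 and 58.7 in CON.

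As a share of the summed miR-1260 value, the 11 profiles that go on past the CCA held 33.4, 34.1 and 37.2% in CON, 36.3, 37.9 and 39.4% in LOS and 52.1, 47.1 and 43.6% in MOS. All MOS libraries were above all CON and LOS libraries in this share, while the miR-1260 sum itself overlapped, at 1716, 2045 and 2104 in MOS and 2022, 2082 and 1453 in CON. The 3 profiles that end in CCA summed to 1029 ± 190.3 in MOS and 1209 ± 260 in CON, and those that go on past it to 925 ± 35.8 in MOS and 642 ± 90.1 in CON (SD, n = 3 each). Matching allowed 1 mismatch and extra bases at the ends, and whether the bases after the CCA are in the genome was not tested.

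**Figure D4:**
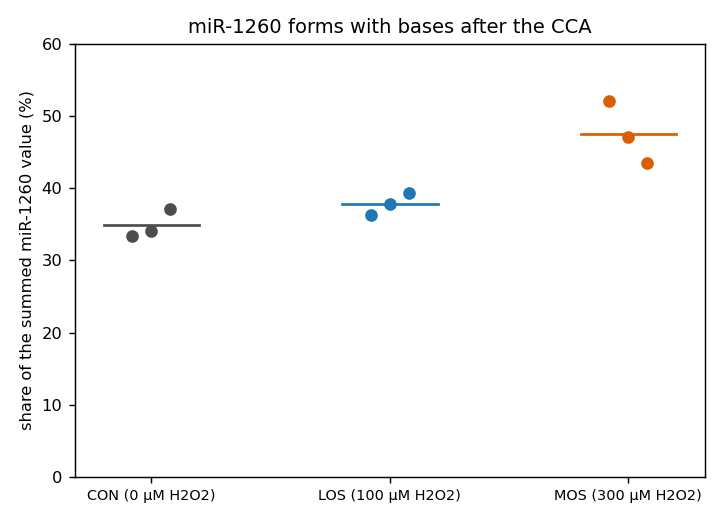
Share of the summed miR-1260 value held by forms with bases after the CCA (y axis, %) in each library (points) and as group means (lines) at the 3 doses of H2O2. The MOS points, at 43.6 to 52.1%, lie above the CON points at 33.4 to 37.2% and the LOS points at 36.3 to 39.4%.

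The snRNA- and snoRNA-like numbers were of intermediate size. miR-1248 lies in humans within the snoRNA SNORA81, which guides pseudouridylation of rRNA. hsa-miR-1248_R-6 had 37.9, 34.8 and 28.9 in CON, 80.9, 65.3 and 64.5 in LOS and 145, 192 and 98.6 in MOS. The groups were ordered by dose with no overlap, with log2 differences of 2.02 (SE 0.26) for MOS against CON and 1.03 (SE 0.26) for LOS against CON, of which the first was called. miR-1291 lies in humans within SNORA34, another H/ACA snoRNA. bta-miR-1291_R+1 had 10.1, 12.5 and 9.02 in CON, 15, 18.7 and 15.2 in LOS and 28.7, 34.4 and 15.2 in MOS. MOS and LOS overlapped, and both lay above CON (log2 difference MOS against CON 1.17, SE 0.33).

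miR-1246 shares letters with U2 snRNA, a part of the spliceosome, in humans. The most abundant of its 13 profiles, bta-miR-1246_L-1_1ss17AT, had 64.5, 75.0 and 72.2 in CON, 85, 56.8 and 86.4 in LOS and 48.6, 131 and 29.3 in MOS. The MOS libraries spanned the CON and LOS values on both sides. hsa-miR-1246_L+1R+2, the sole sequence of the table that holds GGAGCAGG, had 0, 1.79 and 1.80 in CON, 1.70, 3.39 and 0 in LOS and 21.2, 17.2 and 25.5 in MOS. Every MOS library was above all others for this form (log2 difference MOS against CON 3.47, SE 0.62), while the forms with GGAGCTGG, which 3 member sequences hold and 4 of the whole table, overlapped between MOS and CON. hsa-miR-1246_1ss17AT, one of these, had 20.2, 30.4 and 18 in CON, 21.4, 13.6 and 17.1 in LOS and 48.6, 85.4 and 16.3 in MOS. bta-mir-1246-p5_3 had 29.1, 38.4 and 31.6 in CON, 34.7, 29.7 and 27.5 in LOS and 0, 42.1 and 23.3 in MOS, with MOS library 1 listed at 0.

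One number was lower in MOS. cfa-miR-8903_R-2_1ss21GA, its single row, had 12.6, 14.3 and 12.6 in CON, 14.3, 8.48 and 12.3 in LOS and 0, 5.10 and 0 in MOS. It was the member called lower in MOS against CON and against LOS (log2 differences -2.95 and -2.77, SE 0.65 each), and LOS and CON overlapped. Its mean was 1.70 in MOS, against 13.2 in CON.

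For many members, MOS library 3 stood away from the other 2 MOS libraries, and not always on the same side. Over the 26 tested member profiles with a MOS mean of at least 50, MOS library 3 ran from 0.104 to 1.68 times the mean of the other 2 MOS libraries, with a median of 0.854. It was under 0.5 times in 8 profiles and over 1.5 times in 4. Over the 455 sets of 9 values of the whole table at that level, the median was 1, with 46 under 0.5 and 72 over 1.5. The profiles with low MOS library 3 values were those of miR-1973, miR-1246, miR-2137, miR-2904, hsa-miR-4792_L+1R+1_1ss10GT and mmu-mir-6240-p5_1ss1TG, and ssc-miR-4332_L-1_1ss20CA (1.68) and ssc-mir-4332-p5_1ss18CA (1.66) were the highest. The members therefore did not follow a single order among the MOS libraries. miR-122, the single liver marker looked at, also had a lower value in MOS library 3 (22.8) than in MOS libraries 1 and 2 (64.8 and 57.4), against 3.57 to 6.32 in CON and 10.4 to 20.4 in LOS, and its part in these values was not tested.

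**Figure D5:**
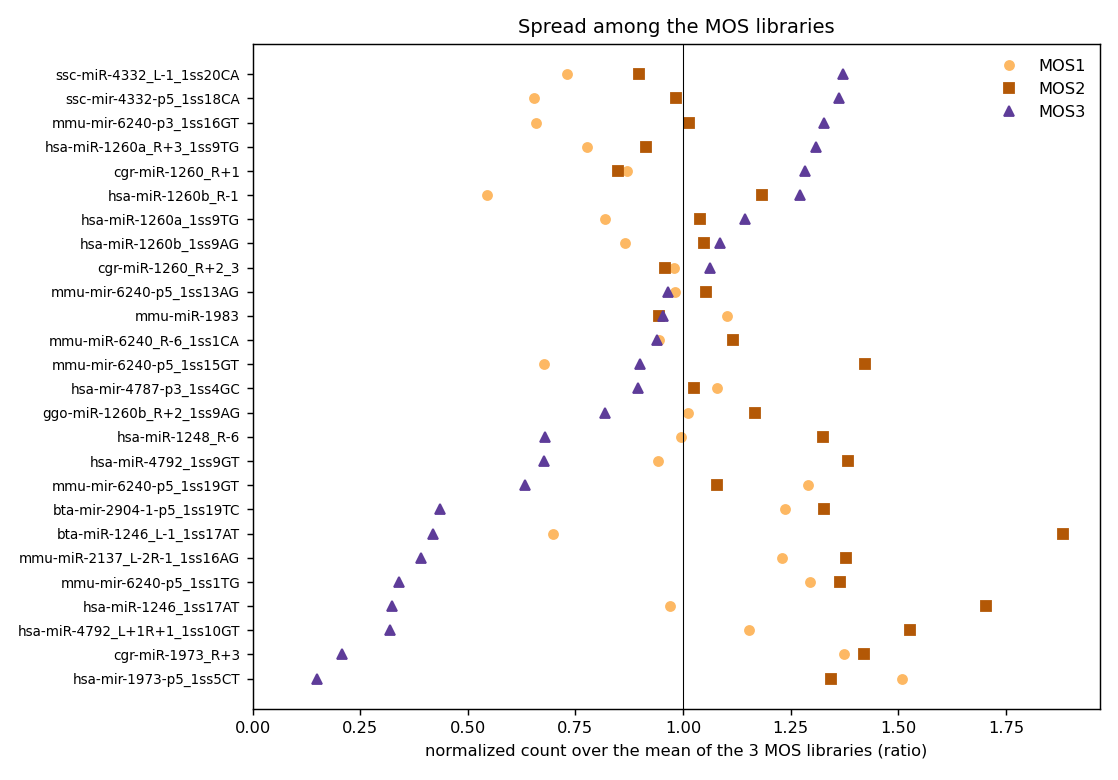
Normalized count in each MOS library over the mean of the 3 MOS libraries (x axis, ratio) for the 26 tested member profiles with a MOS mean of at least 50, sorted by MOS library 3 (triangles). MOS library 3 is highest for both miR-4332 profiles and lowest for the miR-1973 profiles, with hsa-mir-1973-p5_1ss5CT at 0.104 times the mean of the other 2.

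Many members were listed at 0 in all libraries of a dose, where a 0 need not mean 0 reads. All CON libraries were at 0 in 27 of the 75 profiles (36%), against 16.2% of all 1072 sets of 9 values in the table. All LOS libraries were at 0 too in 15 profiles (20%, against 8.4% of all sets), and 14 of the 27 were above 0 in every MOS library (18.7% of the profiles, against 5.32% of all sets). In the other direction, 7 profiles were at 0 in all MOS libraries (9.33%, against 8.4%), and 26 were above 0 in all 9 (34.7%, against 57.9%). The numbers were picked on these values, so the shares are a description. Short entries outside the members were also called more often in 1 direction: of 98 tested sets of values of 18 to 20 nt, 33 were called higher and 2 lower in MOS against CON, with a median log2 difference of 0.66. Such entries held 0.234 to 0.356% of the normalized counts in MOS and 0.147 to 0.199% in CON. Of porcine-named entries outside the members, 33 of 269 were called higher and 34 lower, with a median of -0.02. A list of other miRBase numbers said to overlap such RNA classes had 18 tested sets, of which limma called 4 higher and 0 lower, also 0 lower at an unadjusted p under 0.05, with a median of -0.03. The differences in this list were spread from -1.47 (hsa-mir-7641-2-p3_1) to 6.60 (hsa-mir-4485-p5_1ss1CA). How far short length goes with the members' difference was not tested.

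Since the values are relative to each library, more fragments per cell and less of the other small RNAs per cell cannot be told apart. Scaling every library to the same total would raise the median difference of all tested entries for MOS against CON to 0.29, against 0.07 as deposited, and 26 member profiles were then also called higher and 1 lower.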

How the data were processed

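Small RNA was sequenced from PGCs at 3 doses of H2O2, with 3 libraries each, and the group and number of each library came from the sample labels. The authors made TruSeq small-RNA libraries, used ACGT101-miR to discard junk, adapter dimers, repeats and rRNA, tRNA, snRNA and snoRNA families, and searched miRBase 21 by BLAST with the remaining sequences of 18 to 26 nt, allowing 1 mismatch and variable ends. The deposited signal is a table of normalized counts per entry, 1 column for each library, all used. For the normalization, the formula is not given in the sources used here, nor is the genome build. The filter on RNA families decides which fragments are listed, the tolerant matching decides their names, and values of unlike sequences that share 1 profile, or of near-identical miR-1260 forms, are uncertain.

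Members and lists were chosen with earlier results of these data known. Entries that reached 10 in 3 or more libraries (757, or 670 sets of 9 values) entered a limma-trend fit of log2(value + 1) with the 9 libraries and a group term (limma 3.58.1, R 4.3.3). Adjusted p-values are Benjamini-Hochberg over all entries, and fold changes on this scale understate low entries. The script was tested on simulated data. Named profiles were, for each number, the one with the highest mean, the 10 with the highest mean of all, the 8 with the largest MOS against CON difference, the 3 with the lowest, and the 3 with the largest LOS against CON difference. Other forms were chosen after their values were seen, to show how forms of a number differ. Alternatives were another variance model, 2 scalings, 2 pseudocounts, 2 filters, 1 entry per set of values, 6 libraries alone, a replicate block and each library left out. Tables and figures used Python 3.11.15, pandas 2.3.3, numpy 2.4.6 and matplotlib 3.10.9.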

Additional observations from a re-analysis of the deposited data

Results flagged for a closer look

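For mmu-miR-2137_L-2R-1_1ss16AG and hsa-miR-4508_L+2R-1, every LOS library lay below every CON library and every MOS library above. Of the 4 differences, that of hsa-miR-4508_L+2R-1 for MOS against CON alone was called. For mmu-miR-2137_L-2R-1_1ss16AG the log2 difference was -1.89 for LOS against CON and 1.93 for MOS against CON. For hsa-miR-4508_L+2R-1 it was -1.03 for LOS against CON and 1.31 for MOS against CON. The difference between the effects of the doses was not tested, and both comparisons share the CON libraries.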

How the results depend on the processing

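Of the alternatives for the named profiles, 820 values kept their direction (or stayed at 0) and their side of the threshold, 14 passed it only under the alternative, 38 no longer passed it and 8 changed sign, over 48 results and 19 settings. The 8 were not called in either fit. With equal library totals, MOS against CON was 0.049 for hsa-miR-1260a_1ss9TG and 0.12 for mmu-miR-1983. With 1 library left out, MOS against CON was -0.16 to 0.051 for mmu-miR-1983 (highest without CON library 3) and -0.88 to 0.18 for bta-miR-1246_L-1_1ss17AT (highest without MOS library 3), and LOS against CON was -0.018 to 0.28 for bta-miR-1246_L-1_1ss17AT, -0.33 to 0.011 for cfa-miR-8903_R-2_1ss21GA and -0.19 to 0.0086 for bta-mir-1246-p5_3. Called profiles in MOS against CON numbered 27, and 14 with a value of at least 50 required in 3 libraries, where 21 were tested. They were 54 when every row was counted, and 13 to 28 with 1 library left out, since without a MOS library 28 or 29 profiles were tested. In MOS against LOS the 27 calls became 15 with the stricter filter, 54 with every row and 16 to 28 with 1 library left out. The 5 calls in LOS against CON became 3 without the trend, 3 with equal library totals, 3 with no filter on low values, 3 with the replicate block, 1 with a pseudocount of 10, and 2 to 7 with 1 library left out. Beyond the number of entries tested the cause was not tested. Shares of all sets called under these alternatives are not given, so these counts stand without a background. Summing all rows gave mean shares of 0.148% for CON, 0.152% for LOS and 0.394% for MOS, because rows that share values then count more than once. With 1 library left out the shares were 0.119 to 0.124% for CON, 0.125 to 0.132% for LOS and 0.331 to 0.355% for MOS. The replicate block gave 28 calls in MOS against CON and 27 in MOS against LOS. Same-numbered libraries correlated at -0.08 to 0.18 in their deviations from the group means, so the numbers were not read as pairs. Not run were the edgeR test on whole reads, because the smallest values were 1.6 to 4 steps and not single steps, so a check that starts from the smallest value did not recover whole reads although most values were near whole multiples, and the match of sequences to annotated rRNA, tRNA and snoRNA genes, because no such sequences were used here. Depth limits the entries listed at 0, most of all in the MOS libraries and CON library 1.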
